A study of Mus musculus with 8 samples.

Results

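The 10 transcripts described here encode the THO complex (Thoc1, Thoc2, Thoc3, Thoc5, Thoc6 and Thoc7), the RNA helicase Ddx39b, the adaptor Alyref and the export receptor formed by Nxf1 and Nxt1. They were chosen by gene symbol, and the family was picked because HA values of Thoc2 differed between old and young oocytes in these same libraries, so its HA difference is a description and not a test. All 10 were found in both expression tables, among 10530 genes of the input table, 8898 genes of the HA table and 8537 genes present in both.

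RNA-Seq was performed on MII oocytes (eggs arrested at metaphase of meiosis II after ovulation) from RiboTagF/F;Zp3-Cre females on a C57BL/6 background. Young females were 1 month old and old females were 12 to 15 months old, with 2 pools of 200 oocytes per age and 8 libraries in all. The Methods describe the old females as retired breeders, so age and breeding history cannot be told apart here. All females carried the RiboTag allele, in which Cre recombinase adds an HA epitope to a ribosomal protein, and Cre was driven by the Zp3 promoter, which is active in growing oocytes. All received 5 IU PMSG and 10 IU hCG 48 h later, and oocytes were collected 13 h after hCG. Each pooled lysate gave an HA immunoprecipitate (ribosome-bound mRNA) and an input made of 10% of the pre-cleared lysate (total mRNA). The RNA-Seq was a single experiment, so that the 2 pools per age measure the spread between pools within it.

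As background, THO assembles on nascent transcripts in the nucleus and, with DDX39B and ALYREF, makes up the TREX complex that couples transcription and splicing to mRNA export. ALYREF hands the mRNA to the NXF1-NXT1 dimer, which carries it through the nuclear pore, where DDX19 and GLE1 strip off export factors on the cytoplasmic face. Oocytes that resume meiosis break down the nuclear envelope and are transcriptionally silent, and translation of their stored mRNAs depends largely on cytoplasmic polyadenylation through the cytoplasmic polyadenylation element (CPE) in the 3'-UTR.

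The last CPE-containing stretch of the 3'-UTR is shown for 4 transcripts because this element is the sequence feature through which stored oocyte mRNAs are known to be regulated. Windows of 30 bases are in GENCODE M21 coordinates on GRCm38, all from the minus strand and printed 5' to 3', with the element TTTTAT in capitals.
Thoc2 (chrX:41795044-41795073): tttaagagaattTTTTATctactgaattct
Thoc3 (chr13:54459158-54459187): ttttccctgtccTTTTATataggctgccac
Thoc7 (chr14:13949055-13949084): ttttaaatacatTTTTATccttaaacatag
Alyref (chr11:120592696-120592725): caacactacatgTTTTATgtagcctaggtt
The element of Thoc2 ended 65 bases from the 3' end of its 2807-base 3'-UTR, which held 11 matches to TTTTAT or TTTTAAT in all on the transcript strand. In Thoc7 the last match lay 53 bases from the end, against 333 bases in Thoc3 and 587 bases in Alyref. Thoc1, whose window is not shown, had 4 matches, the last of them 30 bases from the end. The 129-base 3'-UTR of Thoc5 and the 2660-base 3'-UTR of Nxf1 held no match. Of the 8 transcripts with a 3'-UTR of at least 200 bases, 3 had a match in the last 200 bases (Thoc1, Thoc2 and Thoc7), and 5 of the 10 had a match anywhere in the 3'-UTR. By the same search, 32.3% of 7785 genes of the HA table and 30.9% of 9053 genes of the input table had a match in the last 200 bases. These matches are a description of the letters and were not tested as sites.

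The values are CPM (reads on a gene scaled to library size, with TMM normalisation by the authors that was set separately for the HA and the input libraries). Between 37817382 and 59688578 reads were counted on genes in the HA libraries, where 3 reads corresponded to 0.0388 to 0.111 CPM. Input libraries held 38276453 to 60052814 reads, with 3 reads at 0.0435 to 0.0788 CPM. No molecular identifiers were used, and these limits therefore cover counting error only. All 10 oocyte markers (Zp3 and Gdf9 among them) were present in both tables, with summed levels of 8569 to 8891 CPM in old and 9718 to 9740 CPM in young input, and of 11731 to 17600 CPM in old and 10999 to 11950 CPM in young HA. Of 12 cumulus and granulosa cell markers, 7 were in the input table (summed level 35.4 to 110 CPM in old and 77.0 to 135 CPM in young) and 3 were in the HA table (81.7 to 83.8 CPM in old and 156 to 182 CPM in young), while Foxl2, Amh and Lhcgr were in neither. The summed HA level of these markers, most of it Cyp19a1, was therefore lower in both old pools, and its part in the HA differences below was not tested. No blood or immune marker of 5 was in either table, and the oviduct marker Epcam was at 57.6 CPM in the input of old pool 1 against at most 3.29 CPM in the other input libraries. The oviduct markers Ovgp1, Krt8 and Krt18 were in neither table.

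Thoc2 encodes the large scaffold subunit of THO and lies on chromosome X (41794991 to 41920674, minus strand). In the HA libraries it measured 716 and 798 CPM in the old pools, against 112 and 115 CPM in the young pools. These values stand on 30149 and 21590 reads in old and 8638 and 6511 reads in young. Both old pools thus lay far above both young pools, and the spread within each age was narrow. The mean was 757 ± 57.7 CPM in old and 113 ± 2.22 CPM in young (SD, n = 2), a 6.69-fold difference, or 2.73 on the log2(CPM + 1) scale with an SE of 0.43. The difference was 2.09 when each library was rescaled to the same sum and 2.94 when libraries were scaled by the median log2 ratio, and it ran from 2.65 to 2.81 when each HA library was left out in turn. These scalings also moved the median of all genes in the HA table, from -0.14 as deposited to -0.68 and 0.05, so Thoc2 stood well above that median under each of them.

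Total Thoc2 mRNA showed no such separation. Its input measured 163 and 106 CPM in the old pools and 122 and 172 CPM in the young pools, so the ages overlapped. The input difference was -0.14 on the log2 scale (SE 0.37, adjusted p = 0.982, limma), and its sign turned when the input of old pool 2 (0.17) or of young pool 2 (0.11) was left out. The HA-to-input ratio of Thoc2, the translation efficiency (TE) of a pool, was 4.39 and 7.55 in old and 0.917 and 0.667 in young. Among the 8537 genes in both tables this placed Thoc2 at the 93.4th and 96.1st percentiles of the old pools and at the 61.7th and 44.7th percentiles of the young pools. Its log2 TE was 2.87 higher in old than in young (SE 0.63).

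**Figure D1:**
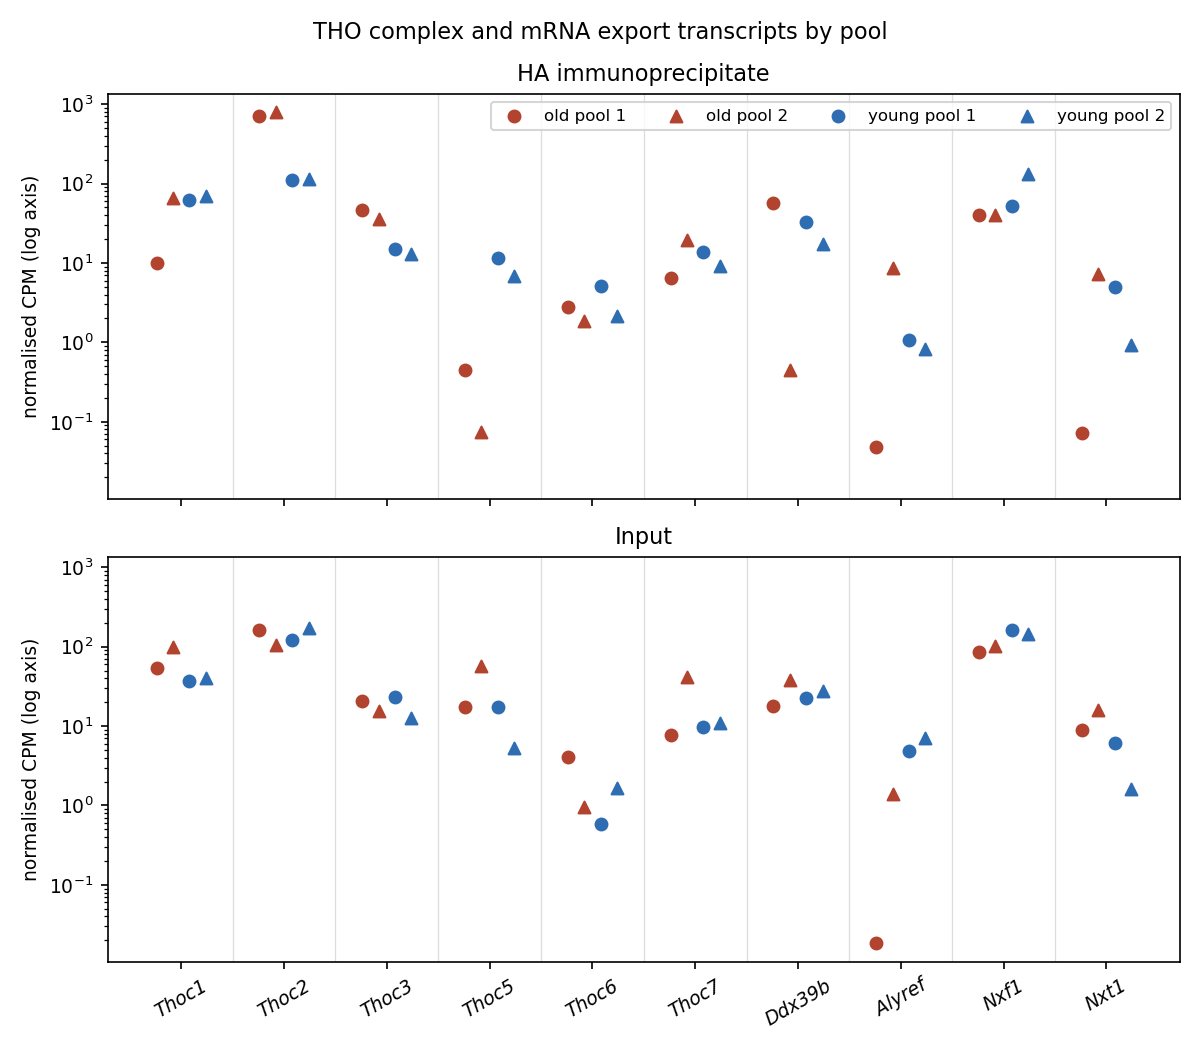
Normalised CPM on a log axis of the 10 transcripts in the HA libraries (top) and the input libraries (bottom), with each point 1 pool (red old, blue young, circles pool 1, triangles pool 2). In HA, Thoc2 lies at 716 and 798 CPM in the old pools and at 112 and 115 CPM in the young pools, whereas its 4 input values run from 106 to 172 CPM.

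Thoc3, a WD-repeat subunit of THO, had the same order of pools in HA as Thoc2, at a lower level. It measured 46.3 and 35.7 CPM in old HA and 15.1 and 12.8 CPM in young HA, without overlap, a 2.94-fold difference in the means (1.48 on the log2 scale, SE 1.07). Its input was 20.7 and 15.3 CPM in old and 23.5 and 12.5 CPM in young, with a log2 difference of 0.05 (SE 0.78, adjusted p = 0.995, limma) that turned to -0.13 when libraries were rescaled to the same sum. TE of Thoc3 was 2.23 and 2.34 in old against 0.642 and 1.02 in young. The HA difference had an SE of similar size to itself, although the sign was positive under every scaling and without any single library.

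Thoc5, a metazoan subunit that contacts export factors, was near the detection limit in old HA. It had 19 and 2 reads (0.451 and 0.0739 CPM) in the old pools and 891 and 392 reads (11.5 and 6.91 CPM) in the young pools. The old values lay below the young ones, by -2.99 on the log2(CPM + 1) scale (SE 0.99). With so few reads the size of the difference depended on the pseudocount, from -4.86 with 0.1 CPM to -1.42 with 5 CPM, and was -1.99 under quantile normalisation. Input of Thoc5 showed no lower level in old, with 17.4 and 57.1 CPM in old and 17.6 and 5.26 CPM in young, so that the ages overlapped. The input log2 difference was 1.60 (SE 0.93, adjusted p = 0.800, limma). TE was 0.0260 and 0.00129 in old against 0.655 and 1.31 in young, the reverse of the order seen for Thoc2 and Thoc3.

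Thoc1, the THO subunit also known as a nuclear matrix protein, was uneven between the old HA pools. Old HA measured 9.98 CPM in pool 1 and 65.8 CPM in pool 2, against 61.6 and 68.8 CPM in young. The old value of pool 2 fell within the young range, and the HA log2 difference of -1.29 (SE 1.09) became 0.01 without old pool 1. Its input was 53.5 and 98.1 CPM in old and 37.0 and 40.8 CPM in young, without overlap. That input difference of 0.88 on the log2 scale (SE 0.49) did not pass the test (adjusted p = 0.792, limma). TE was 0.187 and 0.670 in old, lower than 1.67 and 1.69 in young. Thoc1 overlaps Usp14 on chromosome 18, also in the tables, and the reads were counted without regard to strand, so reads of the overlap cannot be told apart.

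The smaller subunits Thoc6 and Thoc7 gave no ordered difference in either table. Thoc6, known for joining THO units into a larger assembly, measured 2.80 and 1.85 CPM in old HA and 5.20 and 2.15 CPM in young HA, with 4.12 and 0.963 CPM in old input and 0.581 and 1.66 CPM in young input. Thoc7 measured 6.41 and 19.5 CPM in old HA and 13.7 and 9.20 CPM in young HA, with 7.77 and 42.1 CPM in old input and 9.64 and 10.9 CPM in young input. The old and young pools overlapped in all 4 of these sets. Input log2 differences were 0.63 (SE 0.88, adjusted p = 0.950, limma) for Thoc6 and 0.79 (SE 0.99, adjusted p = 0.940, limma) for Thoc7. The sign of both HA differences changed with the scaling. Hcfc1r1 overlaps Thoc6, and Atxn7 and Gm11100 overlap Thoc7, so these low counts may include reads of their neighbours.

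Among the factors that join THO to the export receptor, the DEAD-box helicase Ddx39b differed widely between the old HA pools. It measured 56.1 CPM in HA of old pool 1 and 0.444 CPM (12 reads) in HA of old pool 2, against 33.0 and 17.3 CPM in young. The old pools enclosed the young ones, and its HA log2 difference of -1.46 (SE 1.96) turned to 1.20 without old pool 2. Ddx39b input was 18.0 and 37.6 CPM in old and 22.7 and 27.8 CPM in young, and again the old values enclosed the young ones. The input log2 difference was 0.05 (SE 0.67, adjusted p = 0.993, limma) and -0.13 with libraries of the same sum.

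Alyref, the adaptor that binds mRNA and NXF1, had the lowest mean input level in old. Its input was 0.0184 CPM (1 read) and 1.40 CPM (70 reads) in old and 4.79 and 7.18 CPM (330 and 273 reads) in young. Both old pools lay below both young pools, with a log2 difference of -2.14 (SE 0.93), an unadjusted p of 0.0489 and an adjusted p of 0.778 in limma. With so few old reads its size depended on the pseudocount, from -3.82 with 0.1 CPM to -0.95 with 5 CPM. HA of Alyref was 0.0475 CPM (2 reads) and 8.72 CPM in old and 1.07 and 0.829 CPM in young. TE in old pool 2 was 6.21, against 0.224 and 0.115 in young, while the TE of 2.59 in old pool 1 rests on 2 HA reads and 1 input read.

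Nxf1, the mRNA export receptor, was the member with a lower value in old pools in both tables. Its input measured 86.5 and 101 CPM in old and 162 and 143 CPM in young, a log2 difference of -0.69 (SE 0.33) with an unadjusted p of 0.0698 and an adjusted p of 0.778 in limma. In HA it measured 40.2 and 40.6 CPM in old and 52.2 and 133 CPM in young, with a log2 difference of -1.03 (SE 0.80). The ages did not overlap in either table, and both differences kept their sign under all scalings and without any single library. The size of the HA difference rested on the young pools, with -0.36 without young pool 2 and -1.70 without young pool 1. TE of Nxf1 was 0.465 and 0.400 in old, between the 0.323 and 0.932 of young.

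Nxt1, the small partner of Nxf1, did not follow it. Its input was 8.88 and 15.7 CPM in old and 6.04 and 1.63 CPM in young, with both old pools higher (log2 difference 1.58, SE 1.05, adjusted p = 0.843, limma). Its HA was 0.0713 CPM (3 reads) and 7.21 CPM in old and 4.99 and 0.934 CPM in young, so the ages overlapped. TE of Nxt1 was 0.00803 and 0.458 in old and 0.826 and 0.573 in young.

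**Figure D2:**
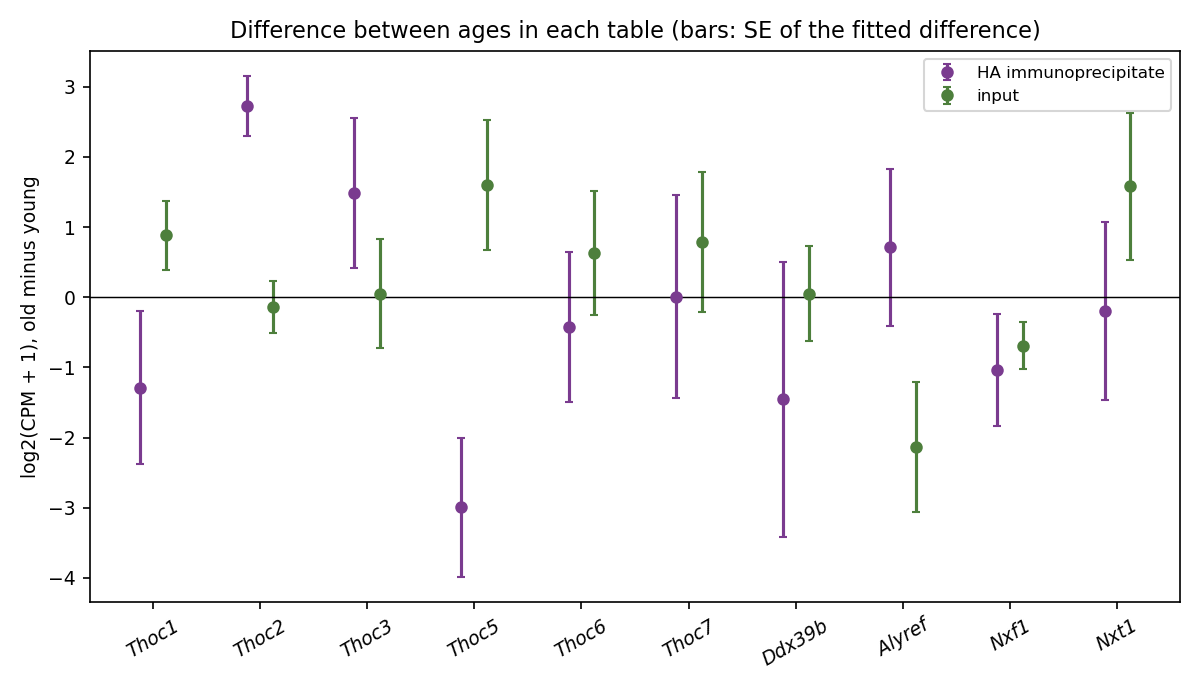
Difference between old and young on the log2(CPM + 1) scale for each transcript in HA (purple) and input (green), with bars showing the SE of the limma fit over 2 pools per age. Thoc2 stands at 2.73 in HA and -0.14 in input, and Thoc5 at -2.99 in HA and 1.60 in input.

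Over the family, total mRNA was the measure that did not enter the choice of genes. Of the 10 transcripts, both old input pools were above both young ones for 2 (Thoc1 and Nxt1), where 16.4% of all genes were. They were below for 2 (Alyref and Nxf1), where 18.9% of all genes were, and the ages overlapped for 6. Alyref alone had an unadjusted p under 0.05 in limma, as did 6.18% of all genes. Its call was lost with a pseudocount of 0.1 CPM, with median log2 ratio scaling and in both edgeR tests. With quantile normalisation Nxf1 was called instead (beside 603 of 10530 genes), and in DESeq2 Thoc5 was (beside 969 genes). None of the 10 passed the adjusted threshold of 0.05 in limma (0.0095% of all genes), edgeR's quasi-likelihood test (0%), edgeR's likelihood ratio test (0.475%) or DESeq2 (1.08%). The median log2 difference of the members was 0.34 in input, beside -0.03 for all genes. Neither the counts nor the adjusted tests set the input levels of the family apart from those of other genes.

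In HA, both old pools were above both young pools for 2 members (Thoc2 and Thoc3), beside 17.2% of all genes, and below for 2 (Thoc5 and Nxf1), beside 24.7% of all genes. The other 6 overlapped. Unadjusted limma p under 0.05 was reached by Thoc2 and Thoc5, and by 14.7% of all genes. With quantile normalisation the Thoc5 call was lost and that of Thoc2 stayed, beside 483 of 8898 genes. No gene of the table passed an adjusted p of 0.05 in limma (0%) or edgeR's quasi-likelihood test (0%). In edgeR's likelihood ratio test 3.32% passed and in DESeq2 5.71%, Thoc2 among them in both and the other 9 members in neither. With a replicate block in limma 9 of 8898 genes passed, with Thoc2 (adjusted p = 0.0496, limma) the only member among them. As Thoc2 was chosen from this contrast, these counts are given as a description. The median log2 difference of the members in HA was -0.31, beside -0.14 for all genes.

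For TE, both old pools were above both young pools for 3 members (Thoc2, Thoc3 and Alyref), beside 17.2% of the genes in both tables. They were below for 4 (Thoc1, Thoc5, Thoc7 and Nxt1), beside 20.4% of these genes, and the remaining 3 overlapped. With 1 CPM added, the log2 TE of Alyref was 0.04 in old pool 1, against -1.48 and -2.16 in young. That old value stands on 2 HA reads and 1 input read and is set mostly by the added 1 CPM. The order of Nxt1 rests in part on 3 HA reads in old pool 1. Thoc2 and Thoc5 had an unadjusted limma p under 0.05, as did 6.49% of genes, and no gene had an adjusted p under 0.05 (0%). TE shares its HA libraries with the contrast that chose Thoc2, so nothing is read from these counts. Within THO, Thoc2 and Thoc3 were higher in old pools, Thoc1, Thoc5 and Thoc7 were lower, and Thoc6 overlapped. Within each pool the median TE of all genes was 0.687 and 0.572 in old and 0.729 and 0.724 in young. With 1 CPM added to both values, 0 of the 10 members lay above the median gene in all 4 pools, and 0 lay below it in all 4. Since HA and input were normalised separately, a TE above or below 1 is not read as such. TE was compared only between genes within a pool, or for a gene between ages, where the same pair of tables enters each pool.

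**Figure D3:**
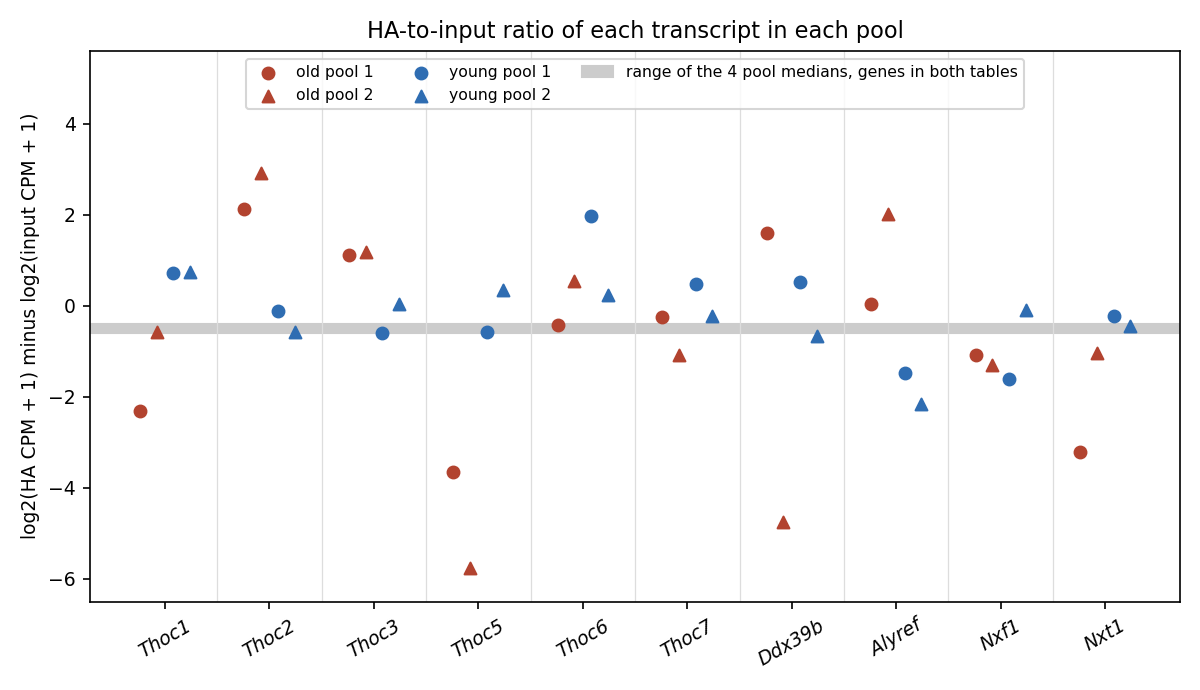
HA-to-input ratio of each transcript in each pool on the log2 scale, with 1 CPM added to both values (red old, blue young) and the grey band showing the range of the 4 pool medians over the 8537 genes in both tables. Thoc2 and Thoc3 lie higher in both old pools, Thoc5 lies lower in both, and the old pools of Ddx39b lie on either side of the young ones.

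To compare levels between members, CPM was divided by the length of all annotated exons in kb. Reads were counted over whole gene bodies, so reads from introns may be included. Gene spans exceed exon lengths unequally (125684 against 12666 bases for Thoc2, 3427 against 1116 for Nxt1), so the order holds for exon length only. In young input, Nxf1 was highest at 34.4 CPM per kb, followed by Thoc2 at 11.6, Thoc3 at 7.40, Ddx39b at 6.68, Thoc1 at 4.35, Thoc5 at 3.99, Nxt1 at 3.44, Thoc7 at 1.57, Alyref at 1.56 and Thoc6 at 0.552. In that order Nxf1 did not overlap Thoc2, Ddx39b did not overlap Thoc1, and Alyref did not overlap Thoc6, while the pools of all other neighbours overlapped. In young HA, Nxf1 (21.0 CPM per kb) also preceded Thoc2 (8.94 CPM per kb). In old HA, Thoc2 came out highest at 59.8 CPM per kb, followed by Thoc3 at 16.9 and Nxf1 at 9.12, with no overlap between these 3 in the old pools. Thoc5 had the lowest mean there at 0.0918 CPM per kb, with pools that overlapped those of Alyref, Nxt1 and Ddx39b. In pooled oocytes, fewer oocytes with a transcript and less of it per oocyte cannot be told apart.

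The profile of Thoc2 was then compared with those of 5305 genes with a mean of at least 10 CPM in both tables. Likeness was the root mean square (RMS) distance of log2(CPM + 1) over the 8 libraries, each gene centred on its own mean in each table. The closest were Xylt1 (RMS 0.246), Cc2d1a (0.287), Mphosph6 (0.294), Blzf1 (0.297) and Hydin (0.304), where the median over all genes compared was 1.13. Mphosph6 was the most abundant of them, with 748 and 1295 CPM in old HA, 134 and 204 CPM in young HA, 344 and 283 CPM in old input and 223 and 272 CPM in young input. Xylt1 had 58.9 and 41.2 CPM in old HA against 8.84 and 6.06 CPM in young HA. None of the 5 was a member or on the list of export genes, and their likeness was chosen from the same values that define it.

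The other genes of mRNA export were taken as a list of 44, of which 35 were in the input table and 33 in the HA table. The paralogs Alyref2 and Ddx39a were in neither table. In input, the old pools were above the young pools for 10 (28.6%, beside 16.4% of all genes), below for 6 (17.1%, beside 18.9%) and overlapping for 19, with a median log2 difference of 0.10. Unadjusted limma p under 0.05 was reached by 4 of 35 (11.4%, beside 6.18% of all genes, with Cetn3 higher and Magohb, Ncbp3 and Zc3h14 lower in old) and adjusted p under 0.05 by none, with DESeq2 and both edgeR tests also at 0. In HA, 8 were above (24.2%, beside 17.2% of all genes), 8 below (24.2%, beside 24.7%) and 17 overlapping, with a median log2 difference of 0.02. There, 3 of 33 reached unadjusted limma p under 0.05 (9.09%, beside 14.7% of all genes, with Gle1 higher and Poldip3 and Srrt lower). None reached the adjusted threshold in limma or in either edgeR test, and 1 did in DESeq2 (3.03%, beside 5.71%).

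In the values as deposited, the genes acting at the pore held most of the higher HA values of the list. Of 9 such genes in the tables, Gle1, Ddx19a, Nup98, Nup214 and Tpr were higher in both old HA pools, Nupl2 was lower and the other 3 overlapped, beside 17.2% of all genes higher and 24.7% lower. Gle1, the activator of the DDX19 helicases, measured 243 and 218 CPM in old HA against 79.1 and 108 CPM in young HA (log2 difference 1.31, SE 0.53, adjusted p = 0.329, limma). Ddx19a, the helicase itself, measured 647 and 1290 CPM against 366 and 523 CPM (1.06, SE 0.47, adjusted p = 0.367, limma), a difference of 0.56 without old pool 2. The input values had the same order for both, with Gle1 at 154 and 123 CPM in old and 80.2 and 83.6 CPM in young, and Ddx19a at 537 and 507 CPM in old and 368 and 425 CPM in young. Total mRNA of 5 pore-side genes (Gle1, Ddx19a, Nup214, Nupl2 and Tpr) was higher in both old input pools, with none lower, beside 16.4% and 18.9% of all genes. These pore-side genes, other than Gle1 and Ddx19a, were named after their values were seen. These differences did not pass the adjusted test. Deposited HA values summed to 1.12e+06 and 1.40e+06 in the old libraries, against 771444 and 831404 in the young ones. With libraries rescaled to the same sum, Gle1 no longer had an unadjusted limma p under 0.05. At that setting 0 of 33 list genes were higher in old HA at this threshold and 4 lower, beside 112 and 1279 of 8898 genes. The list median was then -0.60, beside -0.68 for all genes.

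Among the adaptors, Poldip3, which acts beside Alyref, measured 0.594 and 1.85 CPM in old HA against 18.4 and 24.9 CPM in young HA (log2 difference -3.39, SE 1.42, adjusted p = 0.338, limma). In TREX-2, which docks export at the pore, the scaffold gene Mcm3ap was lower in old HA (163 and 120 CPM against 295 and 167 CPM) and higher in old input (156 and 176 CPM against 103 and 106 CPM). Cetn3, a centrin, had 82.0 and 58.3 CPM in old input against 19.2 and 31.0 CPM in young input (1.46, SE 0.53, adjusted p = 0.778, limma). The splicing factor and adaptor Srsf3 was opposite between tables too, with 24.2 and 14.6 CPM in old HA against 55.8 and 72.9 CPM in young HA, and 35.2 and 69.2 CPM in old input against 24.3 and 20.6 CPM in young input. The related Srsf1 was higher in old input only in the order of its pools, with 28.0 and 42.5 CPM against 24.6 and 12.2 CPM.

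Factors of the cap and the 3' end completed the list. Ncbp3, a cap-binding protein, had 14.9 and 10.5 CPM in old input against 37.3 and 57.6 CPM in young input (log2 difference -1.81, SE 0.67, adjusted p = 0.778, limma). Cpsf6, a cleavage factor, had 10.7 and 0.642 CPM in old input against 11.8 and 33.7 CPM in young input (-2.26, SE 1.22, adjusted p = 0.790, limma), which ran from -3.68 without old pool 1 to -0.84 without old pool 2. Zc3h14, a poly(A)-binding protein of the nucleus, had 60.8 and 68.7 CPM in old input against 131 and 108 CPM in young input (-0.87, SE 0.37, adjusted p = 0.778, limma), while its HA was 80.7 and 183 CPM in old against 44.6 and 77.7 CPM in young (1.03, SE 0.72, adjusted p = 0.636, limma). That HA difference was 1.62 without old pool 1, 0.45 without old pool 2 and 0.64 without young pool 1. Related genes such as Ddx19a and Ddx19b, Nxt1 and Nxt2, or Magoh and Magohb may share reads, which was not tested.

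**Figure D4:**
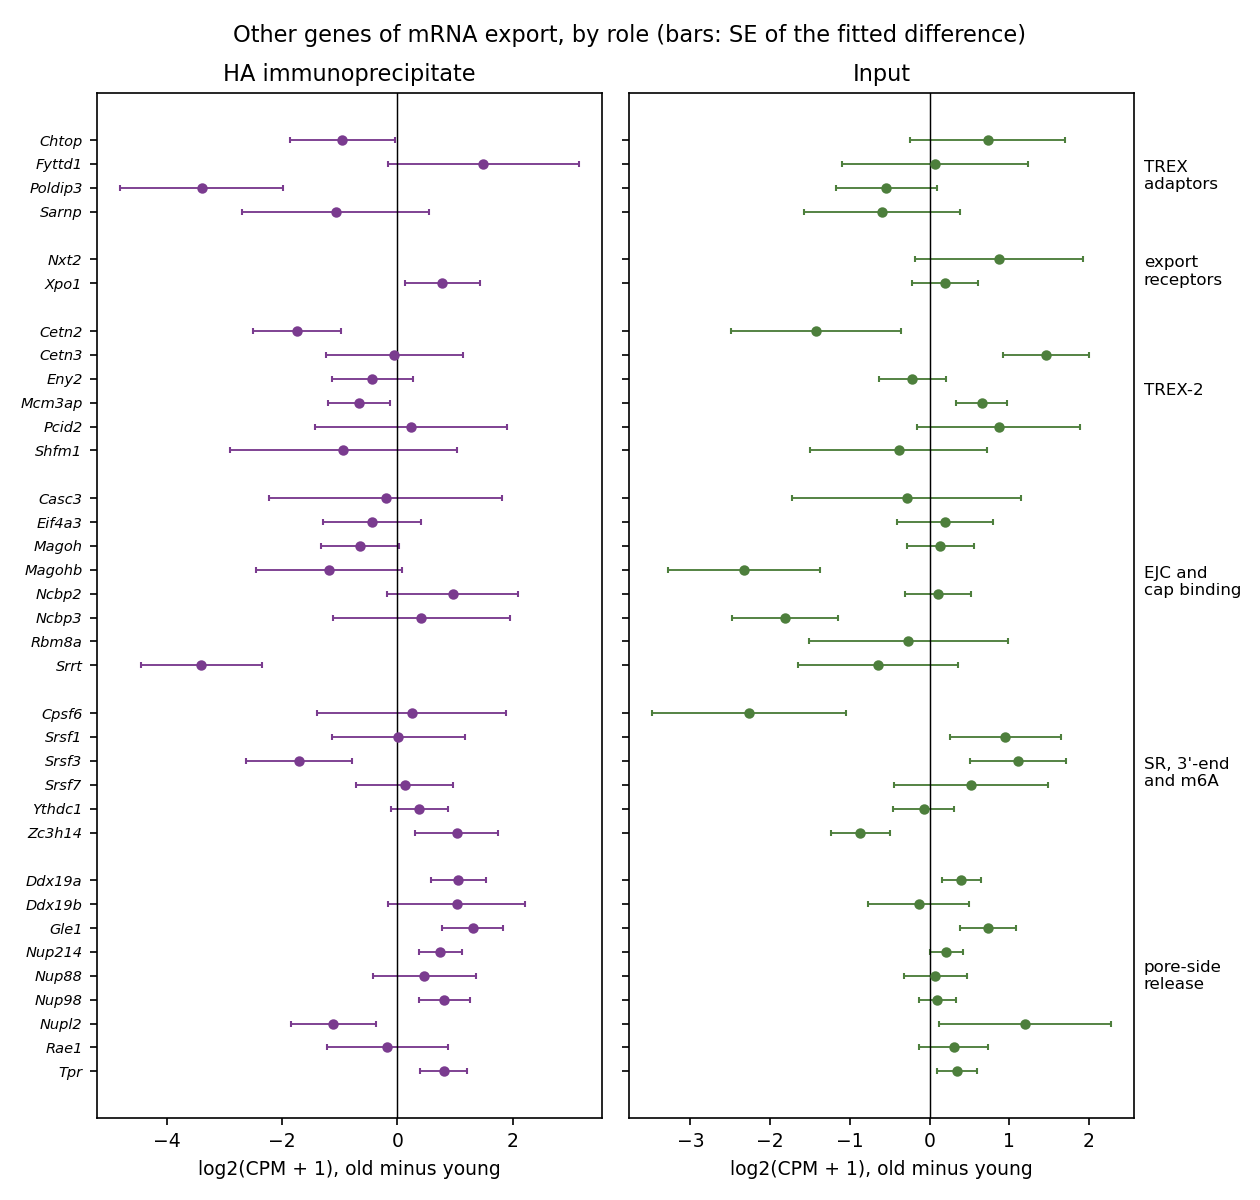
Difference between old and young on the log2(CPM + 1) scale for the other export genes in HA (left) and input (right), grouped by role, with bars showing the SE of the limma fit. Among the pore-side genes 7 of 9 points lie above 0 in HA, whereas Poldip3 (-3.39) and Srrt (-3.40) lie lowest there.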

How the data were processed

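RNA-Seq of 8 libraries from 4 pools of MII oocytes was used. Per the Methods, the authors trimmed reads with Trimmomatic 0.36, aligned them with HISAT2 to GRCm38, counted them per gene with HTSeq without regard to strand over whole gene bodies, and normalised them with edgeR's TMM. The deposited values are this CPM signal, in separate HA and input tables. How reads mapping to several places were treated is not given in the sources used here. The Methods state a 10 CPM filter, yet the tables hold genes below it, such as Thoc6. All sample columns were used.

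Each deposited value was a whole multiple of 1 read in its library (100% of values, tolerance 0.01), so reads were recovered for the count tests. The ages were compared by limma (eBayes with trend) on log2(CPM + 1), a scale that understates differences at low CPM. Tests were two-sided, and p-values were adjusted by the Benjamini-Hochberg method across each whole table. TE was the HA-to-input ratio of a pool. Its orders, percentiles and differences between ages were taken on log2(HA CPM + 1) minus log2(input CPM + 1). An exact permutation test of 2 pools against 2 cannot give a p below 0.333, so p-values come from limma, edgeR or DESeq2 fits across all genes. Alternatives were pseudocounts of 0.1 and 5 CPM, requiring 10 CPM in 2 or more libraries, other scalings, edgeR, DESeq2, a replicate block and leaving out each pool. The fits were tested on simulated data.

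Named genes were all members, up to 3 non-overlapping genes of the wider list with the largest and smallest differences and a mean of at least 10 CPM in each table, the paralogs Alyref2 and Ddx39a, and the 5 genes most like Thoc2. Nup98, Nup214, Tpr, Nupl2, Magohb and Srrt were named after their values were seen. The members and lists were chosen with earlier results of these data known. Genes were matched to GENCODE M21 for 99.7% of HA and 99.8% of input identifiers. CPEs were searched in the 3'-UTR. Tables and figures were made in Python 3.11.15 (pandas 2.3.3, numpy 2.4.6, matplotlib 3.10.9). Fits were run in R 4.3.3 with DESeq2 1.42.0, edgeR 4.0.16 and limma 3.58.1.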

Additional observations from a re-analysis of the deposited data

Results flagged for a closer look

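In 4 genes of the wider export list and in none of the 10 members, the order of old and young pools was opposite in HA and input, with no overlap of the pools in either table. This was 12.1% of the 33 list genes in both tables, beside 4.94% (422) of all 8537 genes in both. The log2 TE difference (old minus young) was -1.32 for Mcm3ap (SE 0.69), -2.31 for Nupl2 (SE 1.31), -2.82 for Srsf3 (SE 1.19) and 1.90 for Zc3h14 (SE 0.86). The limma test of this difference gave an adjusted p of 0.739 for each of the 4 genes, so none passed. Nupl2 stood on low HA values, with 1.38 and 0.0739 CPM in old and 2.00 and 2.96 CPM in young.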

How the results depend on the processing

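All counts here are of genes with an unadjusted limma p under 0.05, unless another test or adjustment is named. For the members in input (1 as reported), the count was 0 with a pseudocount of 0.1 CPM, a filter of 10 CPM or the median log2 ratio scaling. It was also 0 in edgeR's quasi-likelihood and likelihood ratio tests, and 2 with libraries of the same sum. Over all genes it was 651 of 10530 as reported. In the settings named it was 649, 378 of 6775, 643, 580, 767 and 716 genes in turn. For the wider list in input (4 as reported) it was 2 with the 10 CPM filter and with either edgeR test, and 0 to 5 without a pool. For the members in HA (2 as reported) it was 1 (Thoc2) with the 10 CPM filter and with quantile normalisation, beside 537 of 5642 and 483 of 8898 genes. After adjustment, Thoc2 was called in HA with edgeR's likelihood ratio test and with DESeq2 (1 member each, beside 3.32% and 5.71% of all genes). For the wider list in HA (3 as reported) the count was 0 with quantile normalisation, beside 483 of 8898 genes. It was 4 with libraries of the same sum, all lower in old, beside 1391 genes. After adjustment it was 1 (Srrt) with DESeq2, beside 5.71% of all genes. For TE of the members (2 as reported) the count was 1 with the 10 CPM filter, beside 372 of 5357 genes. It was 4 with quantile normalisation, beside 460 of 8537 genes. No member passed for TE after adjustment in the fits that kept all pools. With libraries of the same sum, 1 member lay above the median TE in all 4 pools, against 0 as deposited. Counts are not given for fits without a pool, where 1 pool remained in an age. The cause of these changes was not tested.

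Input differences (log2, old minus young) changed sign for Thoc3 (-0.13) and Ddx39b (-0.13) with libraries of the same sum. Without a pool they ran from -0.45 to 0.17 for Thoc2, -0.38 to 0.48 for Thoc3, -0.062 to 1.32 for Thoc6, -0.36 to 1.93 for Thoc7 and -0.46 to 0.56 for Ddx39b. They kept their sign but ran from 0.45 to 1.31 for Thoc1, 0.77 to 2.43 for Thoc5, -2.76 to -1.52 for Alyref and 0.87 to 2.29 for Nxt1. All member differences in input kept their direction under the other alternatives.

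Old and young pools with the same number share only that number. The correlation of their deviations was 0.0269 in input, 0.0786 in HA and 0.0108 for TE. With a replicate block, the count of members was 1 in input and 2 for TE, beside 678 of 10530 and 608 of 8537 genes. In HA 1 member (Thoc2) passed the adjusted threshold, beside 9 of 8898 genes, and for TE 0 members did, beside 5 of 8537 genes.

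Precision is set by the spread between 2 pools per age, which was wide for transcripts with 1 to 19 reads in an old library (Thoc5, Alyref, Ddx39b and Nxt1), in libraries of 37817382 to 60052814 reads.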
